A study of Homo sapiens with 12 samples.

Results

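The guanylate-binding proteins are large GTPases whose genes interferon switches on. The 5 family members GBP1, GBP2, GBP3, GBP4 and GBP5 were chosen by gene symbol, from 19775 genes with a probe set on the array. They were followed here on 12 Affymetrix arrays of U937, an established human cell line of monocytic type that was grown from a lymphoma. The family was proposed with earlier results of these data known, while the rule itself used only the symbol and, to choose 1 probe set per gene, the mean signal over all arrays. All 5 genes passed the filter on low signal and are among the 13959 genes tested.

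Every group was electroporated with a plasmid for green fluorescent protein (GFP) and sorted for green cells before RNA was taken. The GFP groups carried pEGFP alone, the PRWT groups pEGFP-PRWT, which holds PML-RARA (the fusion of PML with the retinoic acid receptor alpha gene found in acute promyelocytic leukemia), and the PR2VR groups pEGFP-PR2VR. The series title speaks of a protease-resistant PML-RARA, and PR2VR was read as that form, although another label of these samples also calls it wild type. Cells were harvested at 6 h or 9 h, counted from transfection in the GFP titles and from infection in the fusion titles, which gives 6 groups of 2 arrays. Expression was transient, from a plasmid and in a single line, and nothing in the labels tells whether the replicates are separate transfections, so the spread that the p-values measure may be technical.

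Guanylate-binding proteins are made in response to interferon gamma through JAK kinases, and to a lesser degree through IRF1 and type I interferon. They bind GTP, form dimers and larger assemblies, and coat bacteria, parasite vacuoles and replication sites of viruses inside the cell, where they help to start inflammasome signalling and pyroptosis. In monocytes and macrophages they are a common readout of how strongly a cell has responded to interferon.

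In the GRCh38.p14 RefSeq table the 5 genes lie close together on chromosome 1. GBP3 spans 89006680 to 89022866, GBP1 89052319 to 89065208, GBP2 89106132 to 89126114, GBP4 89181144 to 89198942 and GBP5 89256189 to 89272860. Promoter sequences (250 bases before to 50 after the start) were matched for 3 of 5 members, GBP1, GBP3 and GBP4. They were searched on both strands for the core of the interferon-stimulated response element, GAAANNGAA, and for a core of the gamma-activated site, TTCNNNGAA. Both are known from promoters that respond to interferon. The stretches around the matches are shown because the members share them, all on the minus strand, with matches in capitals:
GBP1 chr1:89065316-89065344: acgaagtactTTCAGTTTCatattactct
GBP3 chr1:89022845-89022891: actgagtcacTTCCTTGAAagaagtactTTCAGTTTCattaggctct
GBP4 chr1:89198927-89198955: tgcatgtcctTTCAATTTCggttctcaca
Read on the opposite strand, TTCAGTTTC and TTCAATTTC are matches to GAAANNGAA. The match in GBP1 ran from -126 to -118 counted from the start base as 1, that in GBP3 from 4 to 12 and that in GBP4 from -3 to 6. GBP1 and GBP3 held the same letters there, after the same gaagtact. GBP1 held a second match, GAAAAAGAA, at 38 to 46. The TTCCTTGAA of GBP3 matched TTCNNNGAA from -15 to -7, and the windows of GBP1 and GBP4 held no match to these letters. Gamma-activated sites with other letters were not searched for, so their absence from GBP1 and GBP4 was not shown. Of 35116 promoters of this length in the table, 8.11% held GAAANNGAA and 7.66% held TTCNNNGAA. With 1 more A, as GAAANNGAAA, 3.57% of promoters and the same 3 members held a match. The 250 bases before the GBP1 start, the promoter of the member that passed the test between hours, were:
GBP1 chr1:89065209-89065458: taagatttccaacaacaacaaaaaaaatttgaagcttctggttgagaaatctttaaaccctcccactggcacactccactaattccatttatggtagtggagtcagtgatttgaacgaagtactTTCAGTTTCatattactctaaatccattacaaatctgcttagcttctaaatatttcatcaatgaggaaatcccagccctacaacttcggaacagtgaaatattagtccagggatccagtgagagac

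The measure is the MAS5 signal, the linear brightness of a probe set, and differences are of log2(signal + 62.5). RARA, the check on the constructs, lay between 48.2 and 309.2 without a fusion, between 11970.8 and 58985 on PRWT arrays and between 9281.2 and 41097.2 with PR2VR. The 3 arrays of 1 hour and number are called a set. Arrays of the set 9 h number 2 stood apart from the other 9, with scores of 97.1 to 119 on the first principal component against -55.9 to -15.6, GAPDH 3' to 5' ratios of 2.21 to 2.75 against 3.82 to 12.9, and signals of the poly-A control probe sets of 6579.9 to 121536.3 against 9.7 to 297.9. The PR2VR array of 6 h number 1 had the highest score on the second component, 91.4. Of 12 monocytic markers with a probe set, 10 passed the filter (LYZ 3294.3 to 21335.7, PTPRC 16410.8 to 46039.3), and CD14 and SPI1 did not.

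GBP1, a farnesylated protein that assembles on bacterial surfaces, had the largest difference of the 5 between hours and, averaged over both hours, between the fusions and GFP. It rose between 6 h and 9 h over all constructs, and its signal was lower with either fusion than with GFP in each of the 4 sets, a difference that did not pass the test. At 6 h number 1 its signal was 1252 in GFP, 396.8 in PRWT and 189.1 in PR2VR, and at 6 h number 2 it was 1176, 505.3 and 864.2. At 9 h number 1 the signals were 3885.5, 2508.8 and 1706.9, and at 9 h number 2 they were 7013.2, 5944.5 and 2410.9. Every 9 h array lay above every 6 h array, the highest 6 h value being 1252 and the lowest 9 h value 1706.9. At 6 h both GFP arrays lay above all 4 fusion arrays, and at 9 h the groups overlapped through the PRWT array of number 2.

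GBP2, which carries a geranylgeranyl lipid and blocks the protease furin together with GBP5, was next. At 6 h it read 984 in GFP, 754.1 in PRWT and 688.1 in PR2VR on number 1, and 1352, 1101.3 and 994 on number 2. At 9 h it read 3029.7, 2057.7 and 1142.9 on number 1, and 3459.7, 2858.4 and 3277.1 on number 2. GFP was the highest in each set, and only the PR2VR array of 9 h number 1 fell within the 6 h range of 688.1 to 1352.

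GBP3 and GBP4, which join the coats that GBP1 builds on bacteria, varied less evenly. GBP3 read 674.9, 393.8 and 312.3 in GFP, PRWT and PR2VR on 6 h number 1, and 711.2, 840.6 and 1509.9 on 6 h number 2. Its 9 h signals were 755.5, 836.6 and 1052.7 on number 1 and 1171.6, 952.3 and 1189.5 on number 2. The PR2VR arrays at 6 h were therefore both the lowest and the highest of all 12 for GBP3. GBP4 read 208.1, 172.8 and 30.7 on 6 h number 1, 496.3, 377.4 and 235.5 on 6 h number 2, 395, 237.4 and 222.4 on 9 h number 1, and 517.3, 607.1 and 330.6 on 9 h number 2. PR2VR was the lowest of the 3 constructs for GBP4 in each set, and the share of all genes with this was not counted. All 12 GBP4 signals lay within the range of the 9 bacterial control probe sets (4.4 to 616, median 37.7), which have no target in human RNA, as did 3 signals of GBP1 and 2 of GBP3.

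GBP5, a geranylgeranylated member that sits on the Golgi and promotes NLRP3 inflammasome assembly, followed a pattern of its own on its chosen probe set. At 6 h number 1 it read 29445.8 in GFP, 15298.4 in PRWT and 2723.3 in PR2VR, and at 6 h number 2 20979.6, 15042.1 and 21703.4. At 9 h it read 16105.2, 23540.8 and 10035.6 on number 1 and 7473.5, 11333.2 and 9995.4 on number 2. One array, PR2VR at 6 h number 1, lay far below the other 11. In GFP cells the 9 h signals were below both 6 h signals, which held for no other member. The second GBP5 probe set, 229625_at, did not have this order: GFP read 14678.7 and 19344.1 at 6 h, and 24457 and 10251.2 at 9 h.

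**Figure D1:**
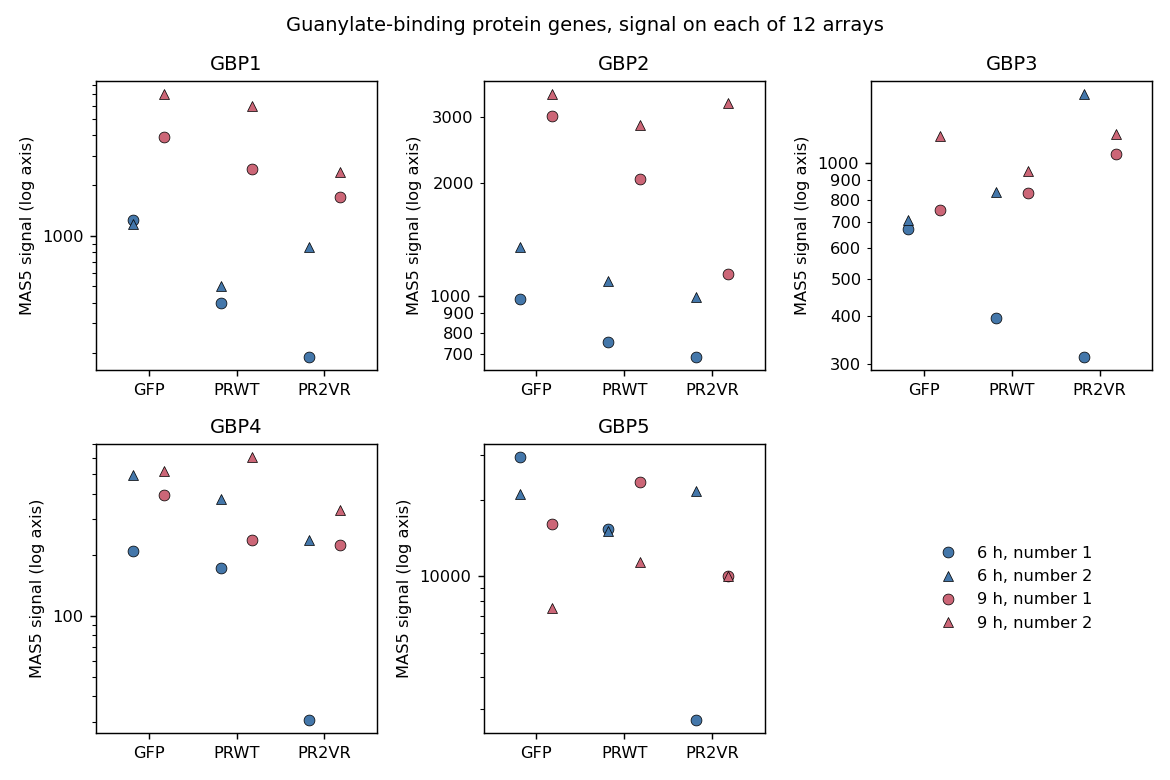
MAS5 signal (log axis, which does not start at 0) of the probe set chosen for each of the 5 genes on each of 12 arrays, by construct, with colour for the hour and marker shape for the replicate number; each point is 1 array. All 9 h points of GBP1 lie above its 6 h points (1252 at most at 6 h, 1706.9 at least at 9 h), and for GBP5 the PR2VR array of 6 h number 1 stands alone at 2723.3.

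As log2 means (SD, n = 2 arrays), GBP1 stood at 10.32 ± 0.061 in GFP, 9.00 ± 0.22 in PRWT and 8.92 ± 1.33 in PR2VR at 6 h, and at 12.37 ± 0.60, 11.94 ± 0.87 and 11.03 ± 0.34 at 9 h. For GBP2 the 6 h means were 10.25 ± 0.31, 9.93 ± 0.36 and 9.80 ± 0.35, and the 9 h means 11.69 ± 0.13, 11.28 ± 0.33 and 10.97 ± 1.04. GBP3 means lay between 9.33 ± 0.70 (PRWT, 6 h) and 10.21 ± 0.12 (PR2VR, 9 h), GBP4 means between 7.38 ± 1.19 (PR2VR, 6 h) and 9.01 ± 0.24 (GFP, 9 h), and GBP5 means between 12.93 ± 2.10 (PR2VR, 6 h) and 14.61 ± 0.35 (GFP, 6 h). The order GFP, PRWT, PR2VR from high to low held in 3 of 4 sets for GBP1, GBP2 and GBP4 and in 1 set for GBP3 and GBP5. Of all genes tested, 3.20% had this order in at least 3 sets. No pair of neighbours in this order passed the adjusted threshold for any member.

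The first comparison asks whether the PML-RARA fusions change the family against GFP. Averaged over both fusions and both hours, GBP1 was lower by -1.12 ± 0.37 on the log2 scale (SE, 8 fusion and 4 GFP arrays), a 2.18-fold difference with a 95% interval of -1.92 to -0.33. In limma its unadjusted p was 0.00936, the 125th smallest of 13959, and its adjusted p was 1. GBP4 differed by -0.58 ± 0.44, GBP5 by -0.49 ± 0.45, GBP2 by -0.47 ± 0.31 and GBP3 by -0.013 ± 0.37. With 1 array left out GBP5 ran from -0.86 (without PR2VR 6 h number 2) to -0.12 (without PR2VR 6 h number 1), and was -0.21 and -0.76 without the GFP arrays of 9 h number 1 and number 2. GBP4 was -0.32 without GFP 6 h number 2 and -0.37 without PR2VR 6 h number 1, and GBP2 was -0.29 without PR2VR 9 h number 1. No member passed an adjusted p under 0.05, where 0.00716% of all genes (RARA's single call) did, and 1 of 5 had an unadjusted p under 0.05, as had 3.14% of all genes. Same-numbered arrays of an hour deviate together, though weakly at 6 h, so a fit with the set as a replicate block was made as well. With the block GBP1 differed by the same -1.12 with an SE of 0.27 and an adjusted p of 0.16, and again 0 of 5 members passed, against 0.315% of all genes (18 higher, 26 lower). The median member difference was -0.49, beside -0.018 over all genes, and -0.79 without PR2VR 6 h number 2. Because RNA was taken from bulk cells, fewer responding cells and less RNA per cell cannot be told apart here.

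The mean of both fusions lay below GFP in all 4 sets for GBP1, GBP2 and GBP4, as it also did for 10.7% of all genes. For GBP1 the differences were -1.95 and -0.77 in the 6 h sets and -0.89 and -0.88 in the 9 h sets. For GBP2 they were -0.42, -0.35, -0.95 and -0.17, and for GBP4 -0.87, -0.63, -0.65 and -0.18. GBP3 went both ways, from -0.83 to 0.62, and GBP5 ran from -2.17 in the set 6 h number 1 to 0.51 in the set 9 h number 2. All fusion arrays lay below both GFP arrays at 6 h for GBP1 alone of the 5 (4.27% of all genes), and at 9 h for none of the 5 (6.28% of all genes). GBP1 differed by -1.36 ± 0.52 at 6 h and by -0.88 ± 0.52 at 9 h, as contrasts of limma's fit to all 12 arrays, each with an adjusted p of 1.

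With PRWT, the wild-type fusion, GBP1 differed from GFP by -0.87 ± 0.43 (95% interval -1.79 to 0.045, adjusted p = 1 in limma), GBP2 by -0.36 ± 0.35, GBP4 by -0.24 ± 0.50, GBP3 by -0.15 ± 0.43 and GBP5 by -0.069 ± 0.52. With the block the GBP1 interval was -1.57 to -0.18 (adjusted p = 0.71), and 1 of 5 had an unadjusted p under 0.05, as had 5.44% of all genes. Without the PRWT array of 9 h number 1, GBP1 differed by -0.57. PRWT lay below GFP in all 4 sets for GBP1 and GBP2 (8.40% of all genes). No member passed, with 0.00716% of genes passing without the block and 0.00716% with it. PR2VR gave -1.37 ± 0.43 for GBP1 (95% interval -2.29 to -0.45, 2.58-fold, adjusted p = 0.98), -0.92 ± 0.50 for GBP4, -0.91 ± 0.52 for GBP5, -0.58 ± 0.35 for GBP2 and 0.13 ± 0.43 for GBP3. PR2VR lay below GFP in all 4 sets for GBP1, GBP2 and GBP4 (9.96% of all genes), and 0 of 5 members passed (0.00716% of genes). With the replicate block the adjusted p of GBP1 was 0.13, and 0 of 5 members passed (0.294% of genes), with 3 of 5 at an unadjusted p under 0.05, as were 11.1% of all genes. Both comparisons use the same 4 GFP arrays.

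The array of PR2VR at 6 h number 1 carried much of the PR2VR values. Without it GBP1 differed from GFP by -0.90 ± 0.37, GBP4 by -0.50 ± 0.49, GBP5 by -0.16 ± 0.36 and GBP3 by 0.65 ± 0.34. In that set PR2VR differed from GFP by -3.41 for GBP5, while in the other 3 sets it differed by 0.049, -0.68 and 0.42.

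The direct comparison of the fusions asks whether the 2VR change altered the family further. PR2VR minus PRWT was -0.84 ± 0.52 for GBP5 (95% interval -1.96 to 0.29), -0.69 ± 0.50 for GBP4 (-1.77 to 0.40), -0.50 ± 0.43 for GBP1 (-1.41 to 0.42), -0.22 ± 0.35 for GBP2 (-0.98 to 0.54) and 0.28 ± 0.43 for GBP3 (-0.64 to 1.21). No gene passed in limma (0% of genes without and 0% with the block, and 216 and 957 genes at an unadjusted p under 0.05). For GBP1, GBP4 and GBP5 the intervals hold a difference of -1, and for GBP3 one of 1. Without the PR2VR array of 6 h number 1 the differences were -0.094 for GBP5, -0.27 for GBP4 and -0.025 for GBP1, and the median went from -0.50 to -0.094. With any 1 array left out, they ran from -1.58 to -0.094 for GBP5, -1.10 to -0.27 for GBP4 and -0.97 to -0.025 for GBP1, the lowest each time without the PR2VR array of 6 h number 2. On the chosen probe sets only GBP4 lay lower in PR2VR than in PRWT in all 4 sets, by -1.34, -0.56, -0.074 and -0.77. The share of all genes with this was not counted. The lower GBP5 and GBP4 values in PR2VR were not shared by the other probe sets of these genes. PR2VR minus PRWT was -0.031 ± 0.574 on 229625_at of GBP5, and 0.401 ± 0.535 on 235574_at of GBP4, which was below the filter. For GBP1 it was -0.484 on 231577_s_at, -0.241 on 202269_x_at and 0.29 on 231578_at, the last below the filter. For GBP2 it was 0.083 on 242907_at.

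**Figure D2:**
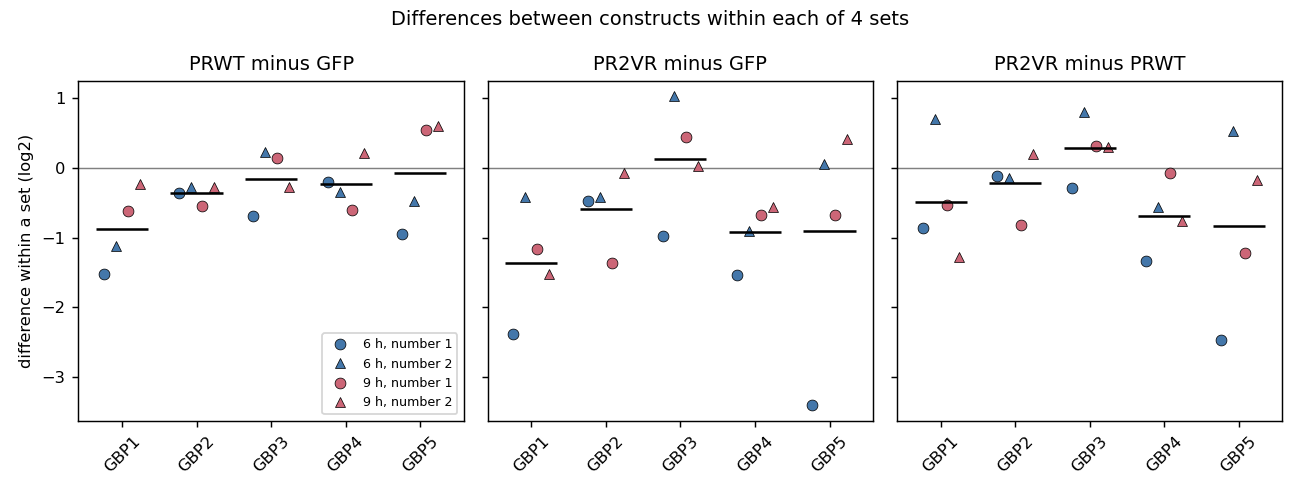
Differences of log2(signal + 62.5) between constructs within each of the 4 sets (points, colour for hour and shape for number) with their mean over sets (bar), for the 5 genes; the line marks 0. GBP1 lies below 0 in all 4 sets for both fusions, while GBP3 lies on both sides and the PR2VR minus GFP value of GBP5 in the set 6 h number 1 is -3.41.

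The second question is how the family changed with time. GBP1 rose by 2.37 ± 0.35 from 6 h to 9 h (6 arrays each, 5.17-fold, 95% interval 1.62 to 3.12), with an adjusted p of 0.033 in limma, the 5th smallest p of 13959. In all, 11 genes or 0.0788% passed, 6 of them higher at 9 h, and GBP1 was the only member. GBP2 differed by 1.32 ± 0.29 (2.50-fold, adjusted p = 0.11 in limma), and passed with the replicate number as a block (adjusted p = 0.019), as did 1.17% of all genes. That block treats same-numbered arrays of the 2 hours as paired, which was not shown (r = -0.022 to 0.19 between them). GBP4 differed by 0.63 ± 0.41, GBP3 by 0.54 ± 0.35 and GBP5 by -0.23 ± 0.43. The median of the 5 was 0.63, beside 0.13 over all genes. All 9 h arrays lay above all 6 h arrays for GBP1 alone of the 5, and for 1.25% of all genes.

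By construct, GBP1 differed between hours by 2.05 ± 0.60 in GFP, 2.94 ± 0.60 in PRWT and 2.12 ± 0.60 in PR2VR, and passed in none (adjusted p = 0.94, 0.98 and 0.98 in limma). GBP2 differed by 1.44 ± 0.50, 1.35 ± 0.50 and 1.17 ± 0.50 in the same order. GBP5 differed by -1.18 ± 0.74 in GFP, 0.11 ± 0.74 in PRWT and 0.37 ± 0.74 in PR2VR. The test of the difference between constructs, fusion minus GFP at 9 h less that at 6 h, gave 1.41 ± 0.90 for GBP5 (95% interval -0.53 to 3.36) and 0.48 ± 0.74 for GBP1, each with an adjusted p of 1 in limma, and no gene passed (0% of genes without and 0% with the block, with 106 and 434 genes at an unadjusted p under 0.05).

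**Figure D3:**
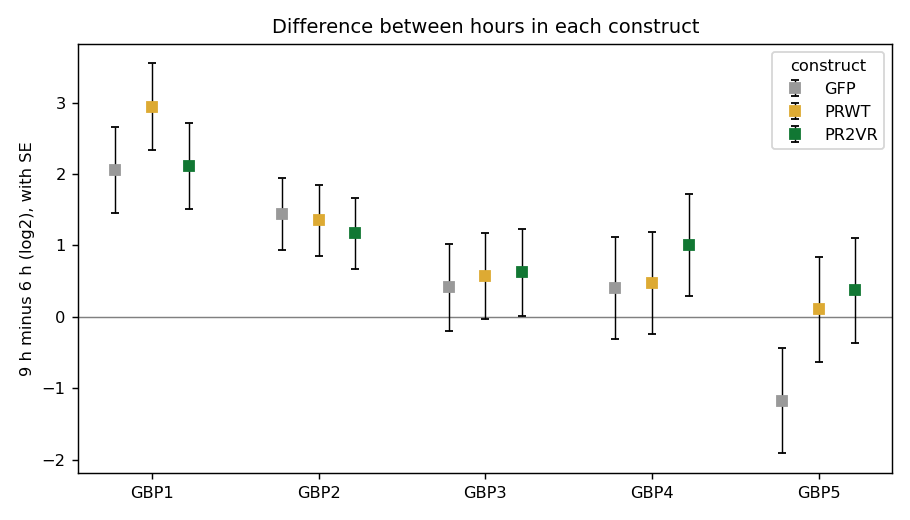
Difference between 9 h and 6 h of log2(signal + 62.5) for each gene in each construct (squares, 2 arrays per hour), with the SE of the limma fit as bars; the line marks 0. GBP1 stands at 2.05, 2.94 and 2.12 and GBP2 at 1.44, 1.35 and 1.17, above the SE, while GBP5 is at -1.18 in GFP and near 0 in the fusions.

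The GBP1 call was close to the threshold. It was lost, at an adjusted p of 0.91 and a difference of 1.95 ± 0.43, without the 3 arrays of 9 h number 2, which stood apart. It was kept without the PR2VR array of 6 h number 2 (adjusted p = 0.012) or the GFP array of 9 h number 1 (0.043), and lost with any 1 of the other 10 arrays left out, when the adjusted p was 0.050 to 0.14 and the difference 2.06 to 2.57. Other measures moved with the hour too. On number 1 arrays the GAPDH 3' to 5' ratio was 3.99 to 5.27 at 6 h and 8.14 to 12.9 at 9 h, and on number 2 arrays 3.82 to 8.28 and 2.21 to 2.75. The summed signal of 5 B-cell markers was 3779.7 to 6137.8 at 6 h and 5720.8 to 17843.7 at 9 h, mostly that of PAX5. That of 11 T- and NK-cell markers was 3708.6 to 13571 and 5244.4 to 16096.2. Of these, NKG7 (1489.2 to 11470.6), GZMA (387.7 to 2480.8), CD2, CD3D and NCAM1 passed the filter. CD3E, CD3G, CD8A, GNLY, KLRB1 and KLRD1 were below it. IFNG, the gene of interferon gamma, was below the filter on its probe set, at 15.3 to 303.2. The part of these measures in the difference was not tested.

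The other probe sets checked these values. GBP1 has 4 probe sets, chosen between on mean log2 values of 10.60, 10.51, 10.06 and 7.44. Probe set 231577_s_at differed between hours by 2.45 ± 0.32 and 202269_x_at by 2.13 ± 0.33, against 2.37 ± 0.35 for the chosen 202270_at. When all 41091 probe sets were tested in limma, these 3 passed with adjusted p of 0.042, 0.049 and 0.049. The 4th, 231578_at, was below the filter at 17.2 to 277.6 and differed by 0.14 ± 0.40. At 9 h the signals of 231577_s_at were 7195.1 and 4878.9 in GFP, 3871.9 and 2876.9 in PRWT and 2120.1 and 1647.5 in PR2VR. Those of 202269_x_at were 3608.7 and 3262.1, 2307.6 and 2088.2, and 1280 and 1412.9. In both probe sets, unlike the chosen one, all fusion arrays lay below both GFP arrays at 9 h. On the chosen probe sets 6.28% of all genes had this, and the share over all probe sets was not counted. At 6 h number 2, however, PR2VR read 966 against 793.1 in GFP on 231577_s_at. Fusion minus GFP was -0.95 ± 0.34 and -0.85 ± 0.35 on these, beside -1.12 ± 0.37. GBP1 has close relatives, GBP3 and the pseudogene GBP1P1 among them, and probe sets with the endings s and x can bind more than 1 transcript, so a share of their signal may come from a relative.

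**Figure D4:**
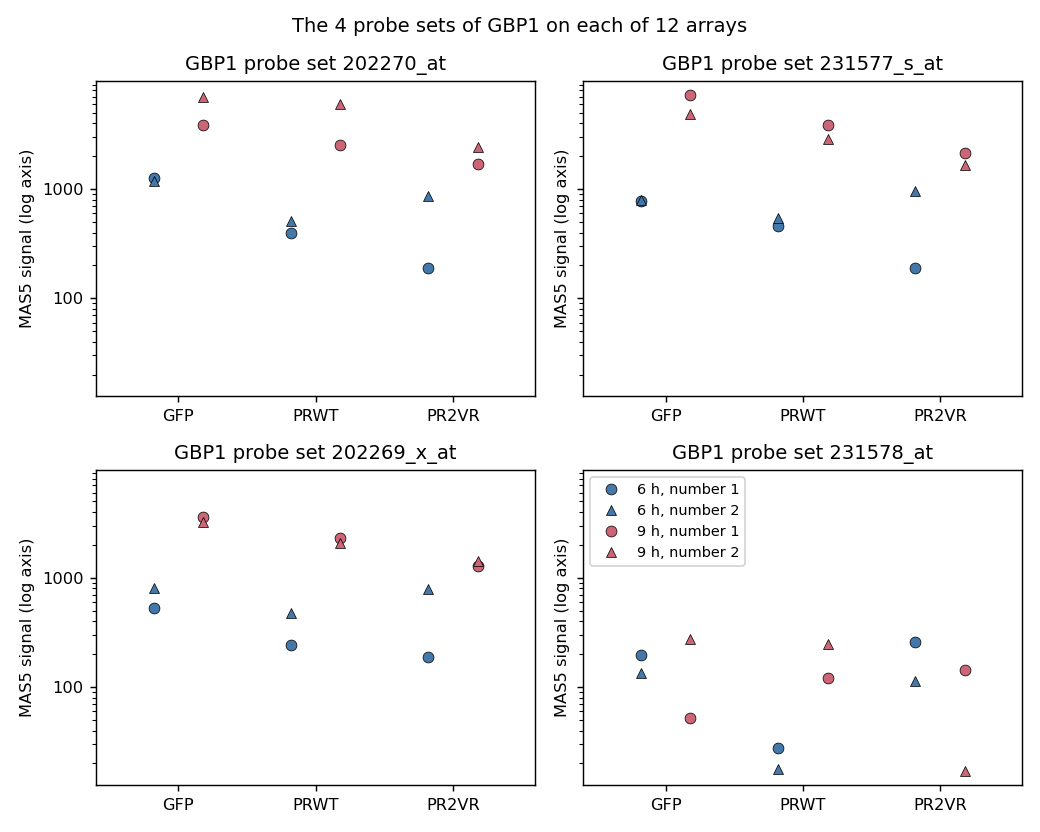
MAS5 signal (log axis, shared) of the 4 probe sets of GBP1 on each of 12 arrays, by construct, with colour for hour and shape for number. In 3 probe sets all 9 h points lie above all 6 h points, and 231578_at stays between 17.2 and 277.6 with no such split.

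The second probe sets of the other members agreed less well. The GBP2 probe set 242907_at read 512.4 to 1388.4 and differed between hours by 0.19 ± 0.31, against 1.32 for 202748_at, and between fusion and GFP by 0 ± 0.33. The GBP5 probe set 229625_at read 2555.2 to 24457, again lowest in PR2VR at 6 h number 1, and gave a fusion difference of -0.74 ± 0.50. Between hours 229625_at differed by 0.40 ± 0.47, against -0.23 for the chosen 238581_at, and in GFP by -0.089 ± 0.81, against -1.18. The GBP4 probe set 235574_at was below the filter, and GBP3 has 1 probe set. In the rest of the family, GBP6 (8 to 377.9 on 2 probe sets) and GBP1P1 (15.1 to 406.3) were below the filter, and GBP7 was not analysed here.

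Across the 12 arrays the members varied together to different degrees, as a description over arrays that share sets. GBP1 correlated with GBP2 at r = 0.91, with GBP4 at 0.75, with GBP3 at 0.63 and with GBP5 at 0.18. Within sets, after the mean of the 3 arrays was subtracted, GBP1 correlated with GBP4 at 0.77, with GBP5 at 0.69 and with GBP2 at 0.58, and GBP2 with GBP3 at -0.18. Over all arrays GBP5 correlated with GBP4 at 0.42, with GBP3 at 0.33 and with GBP2 at 0.02. Within sets GBP5 was closer to GBP1 and, at 0.7, to GBP4. In the set 6 h number 1, PR2VR minus GFP was -3.41 for GBP5, -2.39 for GBP1 and -1.54 for GBP4. The part of that array in the correlations within sets was not tested. The 5 genes most like the members' mean within sets were IFIH1 (the RNA sensor MDA5, r = 0.98), IFI44 (0.98), DCK (deoxycytidine kinase, 0.976), TNFSF13B (the cytokine BAFF, 0.974) and RBM25 (a splicing factor, 0.967). IFIH1 differed between fusion and GFP by -0.54 ± 0.20 with the block and TNFSF13B by -0.64 ± 0.18, and neither passed (adjusted p = 0.45 and 0.25 in limma). Without the subtraction the nearest were TRMT1L, TNFSF13B, IFI44, DDX60 and VRK2, at r of 0.958 to 0.983.

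Genes around the family were taken from lists chosen with earlier results known, in the comparison of fusion with GFP and the fit with the replicate block. In that fit 0.315% of all genes passed an adjusted p under 0.05 in limma. Of 17 genes of interferon gamma signalling, 14 were tested and 1 passed, lower: SOCS1, the feedback inhibitor of JAK kinases, at -1.84 ± 0.26 (adjusted p = 0.019 in limma, and 0.37 without the block). Its GFP arrays read 3764.8 to 8414.7, the PRWT arrays 609.4 to 2791.7 and the PR2VR arrays 934.5 to 1679.5. Of its other 3 probe sets, all weaker (8.9 to 691.2), 1 differed by -1.42 and the others by 0.19 and 0.76. IRF1, a factor that acts on GBP promoters, differed by -1.07 ± 0.25, JAK2 by -0.80 ± 0.21 and IFNGR2, a receptor chain, by -0.56 ± 0.15, and none passed (adjusted p = 0.15, 0.20 and 0.23). The list's median was -0.30, beside -0.018 over all genes, with 11 of 14 below 0. The share of all genes below 0 was not counted.

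Of 30 interferon gamma target genes, 27 were tested, 24 lay below 0 and 3 passed, all lower, where 0.315% of all genes passed. The list's median was -0.51, beside -0.018 over all genes, and the share of all genes below 0 was not counted. IDO1, which breaks down tryptophan, differed by -1.60 ± 0.22 (1126.4 to 5268.8 in GFP, 385.1 to 1617.2 in PRWT, 217.1 to 884.5 in PR2VR, adjusted p = 0.018 in limma). APOL2, an apolipoprotein L, differed by -1.21 ± 0.18 (adjusted p = 0.031), and WARS1, the tryptophanyl-tRNA synthetase, by -0.95 ± 0.15 (0.032). ICAM1, an adhesion molecule, differed by -0.90 ± 0.19 (0.10), PLAAT4 by -0.79 ± 0.20 (0.17), XAF1 by -0.91 ± 0.28 (0.32) and APOL6 by -0.58 ± 0.16 (0.23). Without the block none of the 27 passed, and 6 had an unadjusted p under 0.05. The calls in these lists were lost without the set 9 h number 2. With the block but without that set, a setting chosen after the data were seen, no gene of these lists passed in limma and 1 gene passed in all, while 23 of 27 target genes lay below 0 with a median of -0.53 and 9 had an unadjusted p under 0.05 (3.90% of all genes). Without the set 6 h number 1, where 107 genes passed in all, 4 of the 27 passed, all lower, with a median of -0.34. With all sets, the members' own median of -0.49 lay next to that of this list.

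For the lists that follow, the share of all genes that passed in this fit was again 0.315%. Other GTPases of the interferon response and their atlastin kin went both ways. Of 7 tested, 0 passed, the median was -0.005, MX1 differed by 0.39 ± 0.30 and MX2, another antiviral GTPase, by -0.39 ± 0.14, while the very large GTPase pseudogene GVINP1 differed by -0.89 ± 0.20 (adjusted p = 0.14 in limma) and RNF213 by -0.76 ± 0.26. Of 9 inflammasome and pyroptosis genes, on which guanylate-binding proteins act, 0 passed and the median was -0.19. AIM2, a DNA sensor, differed by -0.77 ± 0.18, GSDMD, the pore protein, by -0.59 ± 0.29, CASP1 by -0.36 ± 0.21 and IL18 by 0.44 ± 0.19. Of 14 genes for prenylation, phosphorylation and cargo of the family, 1 passed, lower: PIM1, a kinase that phosphorylates GBP1, at -1.06 ± 0.17 (3979.2 to 9994.8 in GFP, 2878.9 to 4397 in PRWT, 2747.7 to 3016.1 in PR2VR, adjusted p = 0.032). SFN, a member of the adaptor family that binds phosphorylated GBP1, differed by -0.60 ± 0.20, and YWHAZ of that family by -0.17 ± 0.14. Of 10 monocytic markers tested 1 passed, CD36, higher by 1.33 ± 0.18 (adjusted p = 0.017). The calls of PIM1 and CD36 were lost without the block and, with it, without the set 9 h number 2. Of the other marker lists, none of 5 T- and NK-cell, 5 B-cell and 5 epithelial and fibroblast markers tested passed.

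Between hours, in the fit without the block, no gene of these lists passed beside GBP1. With the replicate number as a block, which assumes a pairing across hours that was not shown, 1.17% of all genes passed. Of these lists XAF1, PLAAT4 and CXCL11 then passed higher (adjusted p = 0.017, 0.023 and 0.047 in limma), and HLA-DRA lower (0.017). GVINP1 (0.034) and the monocytic marker CD36 (0.012) passed higher as well. The values that follow are those without the block. Of the 27 target genes 23 lay above 0, with a median of 0.52, beside a median of 0.13 over all genes. The share of all genes above 0 was not counted. XAF1 differed by 1.79 ± 0.32 (191.8 to 712.6 at 6 h, 684.5 to 2653.2 at 9 h, adjusted p = 0.067 in limma), PLAAT4 by 1.17 ± 0.57, IDO1 by 1.08 ± 0.35 and CXCL11, a chemokine, by 1.00 ± 0.32. HLA-DRA, an antigen-presenting chain, went the other way at -1.68 ± 0.45 (0.18). Among the other GTPases GVINP1 differed by 1.09 ± 0.23 (0.11) and MX2 by 0.064 ± 0.25, and of the inflammasome genes CASP1 differed by 0.84 ± 0.24 (0.19). The signalling genes had a median of -0.11, with IRF1 at -0.73 ± 0.36 and SOCS1 at -0.29 ± 0.36.

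**Figure D5:**
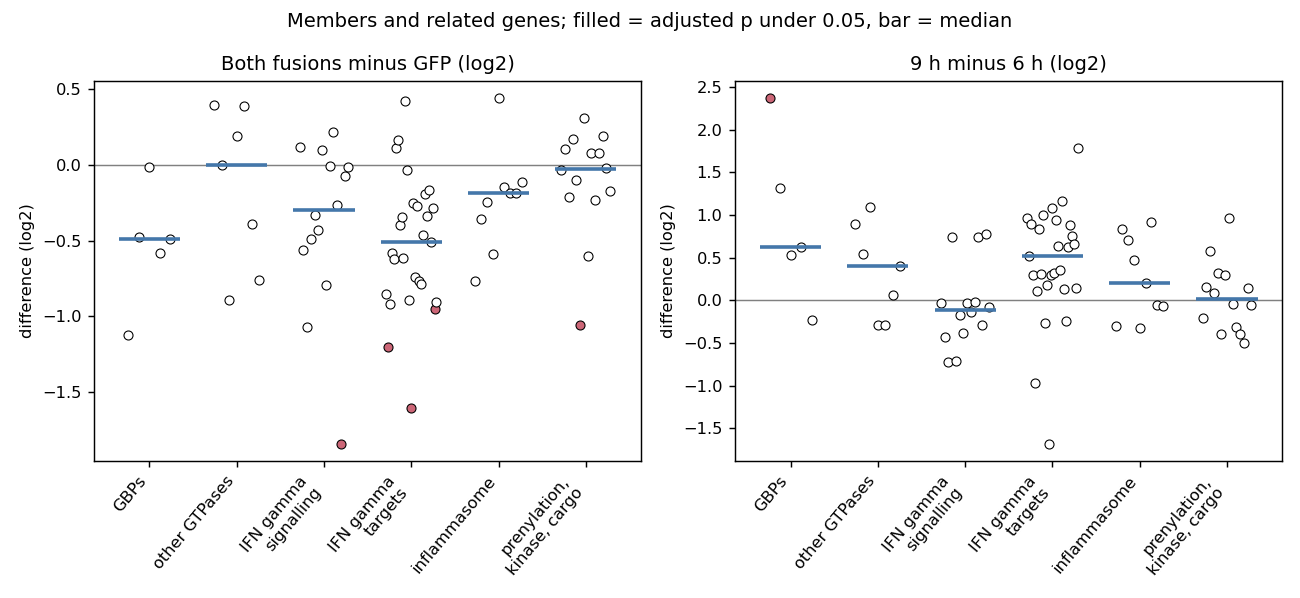
Differences of log2(signal + 62.5) of the members (GBPs) and the 5 lists of related genes, 1 point per gene tested: left, both fusions minus GFP in the fit with the replicate block; right, 9 h minus 6 h without it. Filled points passed an adjusted p under 0.05 in limma and bars are medians, which stand at -0.49 for the members and -0.51 for the interferon gamma target genes on the left; GBP1 is the only filled point on the right.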

How the data were processed

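The deposited intensity values are MAS5 signals that the authors computed, per the submitters' processing notes. The version and the genome build are not given in the sources used here. Every array had a trimmed mean signal of 1500.2, so nothing was normalized further. The number of arrays limits the precision. Of 54613 probe sets that are no controls, 41091 carry 1 gene symbol, and each gene is represented by its probe set with the highest mean log2(signal + 62.5). That offset, the 20th percentile of all values, makes differences of weak genes too small. Genes with a mean of at least the 40th percentile of probe sets (signal 168.9) entered the test, which was limma's (version 3.58.1, R 4.3.3) on group means, with a variance trend on signal and Benjamini-Hochberg adjustment over 13959 genes. There were 18 comparisons. Same-numbered arrays correlated in their deviations from group means at r = 0.15 to 0.36 at 6 h and 0.56 to 0.63 at 9 h. They were taken as paired within an hour, on weak correlations at 6 h, and the set was used as a block in a second fit. Calls made only with that block rest on this pairing. Numbers come from the titles. At most 0.0677% of values were equal on any 2 arrays. The fit without the block was tested on simulated data for fusion minus GFP, among 13959 genes. Of 200 genes changed by 1 on the log2 scale 0 passed, and of 200 changed by 2, 151 passed, with 8 false calls. The simulated noise was independent between arrays, with no effect of hour or set, so these counts do not give the power in the real data.

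The members and the gene lists were chosen with earlier results of these data known. Named genes are the members, any list gene that passed in a main comparison in either fit, up to 4 genes per list with the smallest p for fusion minus GFP, and the 5 genes most like the members' mean. Promoter sequences are those of RefSeq. Protein sequences were not used here.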

Additional observations from a re-analysis of the deposited data

Results flagged for a closer look

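GBP5 differed between PRWT and GFP in opposite directions at the 2 hours, in both sets of each. PRWT minus GFP was -0.94 and -0.48 in the 6 h sets and 0.55 and 0.60 in the 9 h sets, so that the 9 h mean exceeded the 6 h mean by 1.28. The test of that difference in limma gave 1.28 ± 1.04 (95% interval -0.96 to 3.53, adjusted p = 1), and it did not pass. The second GBP5 probe set, 229625_at, did not share the pattern: it read 24457 in GFP and 9013.1 in PRWT at 9 h number 1.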

How the results depend on the processing

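Of 21 alternative settings, 12 left out 1 array each and 1 was chosen after the data were seen (the set 6 h number 1 left out). Same-numbered arrays of different hours correlated at r = -0.022 to 0.19, too unevenly to count as paired. A block of the replicate number across hours therefore rests on a pairing that was not shown. The members passing between 6 h and 9 h numbered 1 without a replicate block and 2 with the replicate number as a block (GBP2 at 1.32 ± 0.22, adjusted p = 0.019 in limma). They numbered 3 with all probe sets (3 of GBP1), 0 with quantile normalization (GBP1 2.31, adjusted p = 0.055), 0 without the variance trend (0.096), 0 without the set 9 h number 2, 0 without the set 6 h number 1 (2.02, adjusted p = 0.14), and 0 to 1 with 1 array left out. The settings were run on 6 comparisons, and in the other 5 no member passed under any of them. Fusion minus GFP stayed below 0 under all settings for GBP1, GBP2 and GBP4. GBP3, near 0, turned to 0.010 with a larger offset, 0.093 without 9 h number 2 and 0.35 without 6 h number 1, which also took GBP5 to 0.003. Without 6 h number 1, PRWT minus GFP was 0.075 for GBP3 and 0.046 for GBP5, the median difference between hours 0.025, and the difference of fusion effects between hours -0.11 for GBP1, -0.54 for GBP3 and -0.11 in the median. Without 9 h number 2, GBP5 differed between hours by 0.13. With 1 array left out, where the lone array of a group was assumed to vary like the other groups, fusion minus GFP of GBP3 ran from -0.27 to 0.25. PRWT minus GFP ran from -0.40 to 0.092 for GBP3, -0.53 to 0.053 for GBP4, -0.35 to 0.21 for GBP5 and -0.48 to -0.075 in the median. PR2VR minus GFP of GBP3 ran from -0.39 to 0.65, PR2VR minus PRWT from -0.59 to 0.15 for GBP2 and -0.24 to 0.80 for GBP3, and GBP5 between hours from -0.73 to 0.26. The difference of fusion effects between hours ran from -0.55 to 0.19 for GBP2, -0.33 to 0.70 for GBP3 and -0.19 to 0.86 for GBP4. The cause of these changes was not tested. The planned comparison of protein sequences was not run.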
